A study of Mus musculus with 162 samples.

Results

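The 10 genes described here mark neurons of the olfactory bulb (OB) or the young neurons that are added to it: Th, Calb2, Eomes, Tbx21, Cdhr1, Dcx, Sp8, Sox11, Dlx1 and Dlx2. They were taken by gene symbol, as known bulb and neurogenesis genes, from a count table of 53686 symbols, and all 10 were found. The mRNA of 9 organs was sequenced from male C57BL/6J mice aged 8 to 9 weeks that had gone without food for 0, 2, 8, 12, 18 or 22 h, with 3 mice at each time. Each of the 18 mice gave every organ, so libraries of different organs that share a time and a replicate number come from the same animal. OB is described here with BRN (telencephalon and diencephalon), CBL (cerebellum) and BST (mesencephalon, pons and myelencephalon) beside it.

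The mitral and tufted cells of the bulb are glutamatergic neurons that receive odour input in the glomeruli and project to the olfactory cortex. Their output is shaped by granule and periglomerular interneurons, which release GABA, and some periglomerular cells also make dopamine. These interneurons are replaced through adult life by neuroblasts, which are born in the wall of the lateral ventricle and migrate to the bulb along the rostral migratory stream.

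The OB libraries held 8224940 to 17704828 counted reads, with a median of 11630035. The CBL libraries held 6487419 to 22071004 and the BST libraries 6998492 to 11776354, with 18 libraries in each of these 3 regions. BRN had 16 libraries of 3045845 to 12108290 reads, since its 8 h replicate 3, with 130701 reads, and its 18 h replicate 1, with 279848, were left out. Levels are given in CPM, counts relative to library size, after TMM scaling, which removes differences in library composition, within OB for changes over time and over the 4 regions together for differences between regions. A gene was tested where at least 3 libraries exceeded the CPM that 10 counts make at the median depth. This filter was passed by all 10 genes in OB, by 9 of them in BRN, by 6 in CBL and by 6 in BST. Tbx21 did not pass it in BRN, CBL or BST, and Sp8, Dlx1 and Dlx2 did not pass it in CBL or BST. A count of 3 in a library, taken as the floor below which no level is read, equalled 0.165 to 0.347 CPM in OB and 0.132 to 1.17 CPM over all 70 libraries. Intervals and floors cover counting error only.

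A few libraries stood apart and are named before the results. OB 0 h replicate 3 held 343 CPM of Ttr, a choroid plexus transcript, against 0.397 to 8.92 CPM in the other OB libraries, and the lowest summed level of the olfactory sensory neuron markers, 247 CPM. It also held the lowest sums of the interneuron genes, 5410 CPM, and the neuroblast genes, 1857 CPM. The ensheathing glia markers, 1864 CPM, and the oligodendrocyte markers, 2952 CPM, were lowest there too. Its sum of the mitral and tufted cell genes, 2412 CPM, was the highest of the OB libraries. OB 18 h replicate 1 held the lowest sum of activity-dependent genes, 219 CPM, and the highest sum of red blood cell genes, 247 CPM, of the 18 OB libraries. OB 0 h replicate 1 was also low in activity-dependent genes, with 246 CPM, while the median OB library held 928 CPM. Among these libraries, OB 18 h replicate 1 had the highest Calb2 and Th and the lowest Dcx and Cdhr1 of all OB libraries, OB 0 h replicate 3 had the highest Tbx21 and Cdhr1, and OB 0 h replicate 1 had the lowest Sox11, Sp8 and Dlx2. In BRN, the 18 h replicate 2 library held no read of Sox11, Sp8, Dlx2, Eomes or Tbx21, although each of the other 15 BRN libraries held at least 12.2 CPM of Sox11.

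A transcript length slope was computed for each library, the change of a gene's log2 level, relative to its mean over the region, with each doubling of its exon length. A length was known for 97.9% of the genes tested in OB. The slope was -0.148 in OB 18 h replicate 1, -0.0413 in OB 18 h replicate 2 and -0.0603 in OB 18 h replicate 3. These were the 3 lowest slopes of the 18 OB libraries, so long transcripts read lower and short transcripts read higher at 18 h than at the other times. The slopes at 0 h were 0.0270, 0.0146 and -0.0138. The sequencing lanes also followed time: all libraries of 0 h and 2 h and replicates 1 and 2 of 8 h were read in lane 3, and all the others in lane 4.

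**Figure D1:**
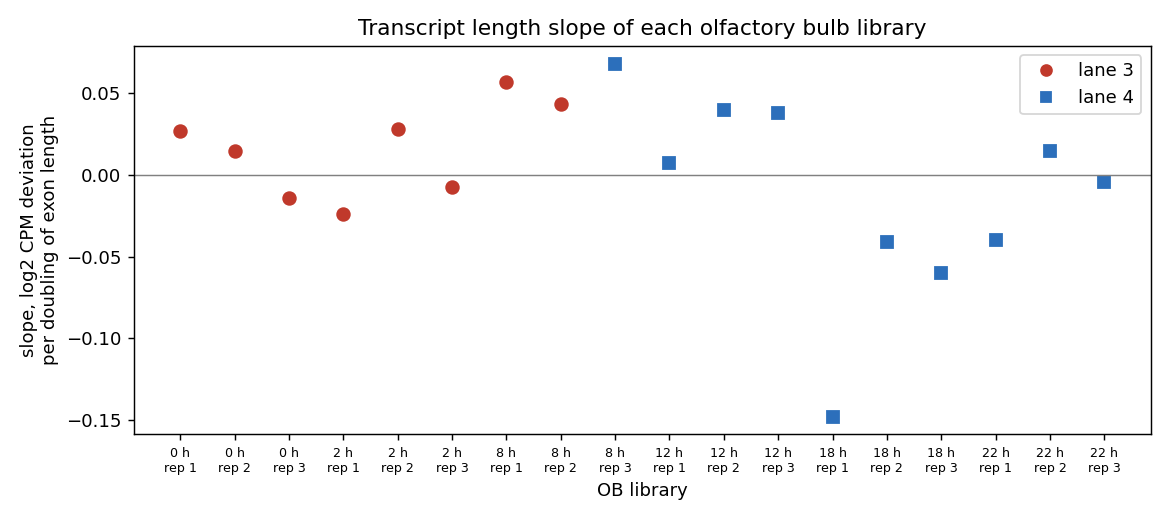
The transcript length slope (deviation of log2 CPM per doubling of exon length, vertical axis) of each of the 18 OB libraries (horizontal axis), with circles for lane 3 and squares for lane 4. The 3 libraries of 18 h lie lowest, between -0.148 and -0.0413.

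Cdhr1, a cadherin-related protein, marks mitral and tufted cells. Its lowest, median and highest levels were 516, 604 and 709 CPM in the 18 OB libraries, 4.03, 10.9 and 28.98 CPM in the 16 BRN libraries, 2.38, 3.20 and 4.65 CPM in BST, and 0.483, 1.27 and 2.71 CPM in CBL. Every OB library lay far above every library of the other regions, and BRN overlapped BST, which overlapped CBL. The log2 difference from OB to BRN was 5.69 (SE 0.15, adjusted p = 4.08e-36), averaged over the 6 times. BRN exceeded BST by a log2 difference of 1.83 (SE 0.17, adjusted p = 9.85e-14), and BST exceeded CBL, with a CBL minus BST difference of -1.35 (SE 0.22, adjusted p = 5.46e-07).

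Eomes and Tbx21 are T-box transcription factors of the same projection neurons, and they differed from each other outside the bulb. Eomes ranged from 109.95 to 176 CPM in OB (median 147.9) and from 13.9 to 62.8 CPM in CBL (median 31.7), and lay at or below 2.40 CPM in every BRN and BST library. The OB and CBL ranges did not touch, and the log2 difference between them was 2.26 (SE 0.13, adjusted p = 6.82e-22). In the cerebellum Eomes is known from unipolar brush cells. BRN and BST did not differ in Eomes (log2 difference -0.54, SE 0.41, adjusted p = 0.227). Tbx21 ranged from 31.8 to 52.5 CPM in OB, while 7 of 16 BRN, 11 of 18 CBL and 11 of 18 BST libraries held no read of it. Its pooled CPM in OB was 747 times that in CBL (95% exact binomial interval 406 to 1558) and 95.3 times that in BRN (71.4 to 130.3), and no difference between CBL and BST was detectable at this depth (ratio 1.04, 0.379 to 2.89). BRN, with up to 3.09 CPM of Tbx21, held 7.84 times the pooled CPM of CBL (3.90 to 17.4) and 8.14 times that of BST (3.94 to 18.9). The counts behind these ratios summed to 46 in BRN, 10 in CBL and 9 in BST. All these intervals cover counting error and not the spread between animals. The edgeR log2 difference of Tbx21 from OB to BRN, averaged over the 6 times, was 7.29. Eomes thus had a clear level in CBL as well as in OB, and Tbx21 was near its floor in CBL and BST and low in BRN.

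Th, the rate-limiting enzyme of dopamine synthesis, marks the dopaminergic periglomerular cells. It ranged from 205 to 297 CPM in OB (median 247), from 10.6 to 27.7 CPM in BRN (median 18.2), from 12.0 to 23.8 CPM in BST (median 16.0) and from 4.33 to 12.4 CPM in CBL (median 9.00). The order was OB, BRN, BST and CBL. The neighbours BRN and BST overlapped over most of their range, and both overlapped the upper end of CBL. The log2 difference from BRN to BST was 0.24 (SE 0.10, adjusted p = 0.0280), against 3.66 (SE 0.10, adjusted p = 3.87e-37) from OB to BRN.

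Calb2, which encodes the calcium-binding protein calretinin of periglomerular and granule cells, was the least confined to the bulb. It ranged from 578 to 1031 CPM in OB (median 709), from 402 to 518 CPM in CBL (median 477), from 148.4 to 192.4 CPM in BST (median 179) and from 68.9 to 148.4 CPM in BRN (median 96.6). No 2 regions overlapped in Calb2. Its log2 difference from OB to CBL was 0.59 (SE 0.05, adjusted p = 2.54e-16), the only member difference from OB that stayed below a 2-fold change.

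Sp8, Dlx1 and Dlx2 are transcription factors of the GABAergic interneuron lineage of the bulb. Dlx1 ranged from 323 to 396 CPM in OB and from 10.1 to 22.6 CPM in BRN, and reached at most 0.422 CPM in CBL and 0.375 CPM in BST. Dlx2 ranged from 57.8 to 79.6 CPM in OB and up to 8.10 CPM in BRN, and its counts summed to 4 over the 18 CBL libraries and to 2 over the 18 BST libraries. Sp8 ranged from 123.8 to 171.4 CPM in OB and up to 9.05 CPM in BRN, 1.13 CPM in BST and 0.406 CPM in CBL. All 3 were present in the forebrain outside the bulb at a low level. Behind it Dlx1 and Dlx2 were at or near the floor, while Sp8 had a median of 0.611 CPM in BST, with a lowest value of 0.263 CPM in BST 18 h replicate 2 that lies below the floor of that library, 0.394 CPM. The pooled CPM in OB was 22.003 times that in BRN for Dlx1 (95% exact binomial interval 20.99 to 23.1), 15.1 times for Dlx2 (13.8 to 16.5) and 42.9 times for Sp8 (38.7 to 47.5). These intervals cover counting error and not the spread between animals. The edgeR log2 difference from OB to BRN, averaged over the 6 times, was 4.52 for Dlx1, 4.13 for Dlx2 and 5.60 for Sp8. CBL and BST did not differ detectably in Dlx1 (ratio 1.34, 0.642 to 2.86) or in Dlx2 (ratio 1.87, 0.268 to 20.7). The pooled CBL to BST ratio of Sp8 was 0.104 (0.0521 to 0.189). Its counts summed to 12 in CBL, with at most 3 in a library and 10 of 18 libraries at 0, and to 108 in BST. No level of Sp8 is therefore read in CBL.

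Dcx, the microtubule-binding protein of migrating neuroblasts, ranged from 165.9 to 286 CPM in OB (median 248.8), from 8.78 to 44.05 CPM in BRN (median 26.1), from 12.2 to 16.1 CPM in BST (median 14.1) and from 3.52 to 7.60 CPM in CBL (median 5.74). The 4 regions followed that order, with overlap between BRN and BST only. The log2 difference was 3.21 (SE 0.08, adjusted p = 7.03e-42) from OB to BRN and 0.88 (SE 0.08, adjusted p = 1.04e-14) from BRN to BST.

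Sox11, a transcription factor of young neurons, had the smallest difference between OB and BRN of the 10 genes. It ranged from 22.8 to 36.996 CPM in OB (median 32.1) and up to 25.1 CPM in BRN (median 15.9), and stood at 3.36 to 6.10 CPM in BST and 2.16 to 5.52 CPM in CBL. The OB and BRN ranges overlapped, as did those of BST and CBL. The OB to BRN log2 difference was 1.04 (SE 0.11, adjusted p = 1.87e-12), and BST and CBL did not differ (CBL minus BST -0.27, SE 0.13, adjusted p = 0.0701). The OB to BRN difference fell below a 2-fold change with the animal as a block (0.99), without BRN 2 h replicate 3 and BRN 18 h replicate 2 (0.91), with all 18 BRN libraries (0.91), without replicate 2 of every group (0.89) and in the 0 h libraries alone (0.58). It rose to 2.65 without replicate 3 of every group, when BRN at 18 h is represented by replicate 2 alone, the library without a read of Sox11. The adjusted p over all alternatives ranged from 2.78e-32 to 0.0245.

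All 10 genes were chosen as bulb genes, so their higher level in OB is a description. With a call set at an adjusted p under 0.05 and a change above 2-fold, 10 of 10 were higher in OB than in BRN, where 12.2% of the 18496 genes tested were called in that direction. Against CBL 9 of 10 were called (13.3% of all genes), Calb2 being the exception, and against BST 10 of 10 (12.2% of all genes). Every OB library lay above every BRN library for 9 of 10 genes (6.84% of all genes), all but Sox11, above every CBL library for 10 of 10 (13.5%) and above every BST library for 10 of 10 (16.7%). The count of genes called higher in OB than in BRN was 2254, 3571 without replicate 3 of every group and 1281 in the 0 h libraries alone. Away from the bulb, the regions also differed in these genes. Between BRN and CBL 9 of 10 were called in either direction (31.4% of all genes), between BRN and BST 5 of 10 (26.7%) and between CBL and BST 5 of 10 (22.2%), and without replicate 3 of every group 2 were called between BRN and BST (31.8%). With the animal as a block 10, 6 and 5 of the 10 were called in these 3 comparisons (31.0%, 25.6% and 22.3% of all genes). Only 6 of the 10 passed the filter in CBL and in BST. Tbx21, Sp8, Dlx1 and Dlx2 were kept through their levels in OB or BRN. The count between CBL and BST is therefore not read as a result about them.

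**Figure D2:**
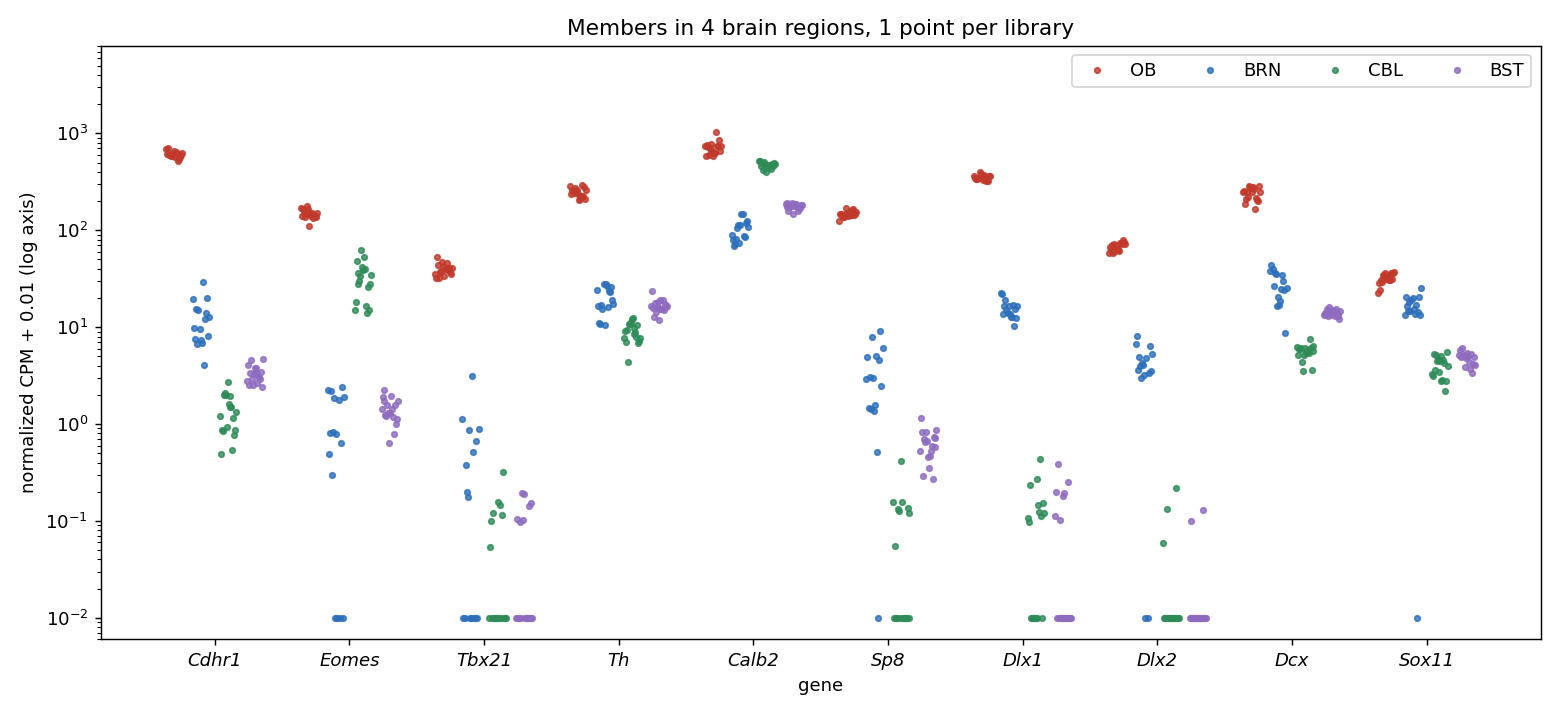
The level of each of the 10 genes (CPM plus 0.01, log axis) in the 4 regions, with 1 point per library over all 6 fasting times (18 OB, 16 BRN, 18 CBL and 18 BST libraries). All OB points lie above those of the other regions for every gene except Sox11, where OB and BRN overlap, and Dlx1, Dlx2 and Tbx21 lie at or near the floor in CBL and BST.

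Levels of different genes were compared per kb of exon, on the scale of mean CPM per kb in the 18 OB libraries. Calb2 was highest with 408 (SD 62.6), followed by Cdhr1 with 140.4 (SD 11.2), Th with 104.3 (SD 11.5) and Dlx1 with 64.999 (SD 3.62). Eomes with 35.6, Sp8 with 32.5, Dlx2 with 23.7, Dcx with 19.05 and Tbx21 with 15.9 followed, and Sox11 was lowest with 3.84 (SD 0.481). Sox11 thus stood lowest per unit of length, and Dcx lay above Tbx21 and below the other interneuron and projection neuron genes. Over the 18 OB libraries the coefficient of variation was smallest for Dlx1, 5.57%, and largest for Calb2, 15.3%, and Dcx, 15.2%. Exons of Dlx1 share 335 bp with those of Dlx1as on the other strand (6.21% of its exon length), and 2.84% of the exon length of Eomes is shared with Gm33460. The labels do not state the strand setting of the counting, so the reads of these overlaps cannot be told apart.

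Over the course of fasting, the bulb's neuronal identity genes moved little. At 18 h Sox11 and Dlx2 were called higher than at 0 h and Cdhr1 lower. All of these calls ended with lane as a covariate, with the length slope as a covariate and without OB 0 h replicate 1. In the main fit, with all OB libraries and no covariate, none of the 10 changed by as much as 1.5-fold at any time. With lane as a covariate the log2 change of Sox11 at 18 h was 0.64. In a joint test over the 6 times, 2 of the 10 genes were called, Sox11 and Dlx2, where 15.4% of the 16742 genes tested in OB were called, a share near that of the 10. In bulk tissue, fewer cells of a type and less RNA per cell cannot be told apart. In comparisons of each time with 0 h, 3 of the 10 were called at 18 h (12.0% of all genes), Sox11 and Dlx2 among the 5.70% of genes that were higher and Cdhr1 among the 6.31% that were lower. At 2 h, 8 h, 12 h and 22 h none of the 10 was called by edgeR, where 0.00597%, 0.0179%, 0% and 0.113% of all genes were. At an unadjusted p under 0.05 these were 2 genes at 2 h (Sox11 and Cdhr1), 2 at 8 h (Sox11 and Dcx), 3 at 12 h (Sox11, Eomes and Th) and 3 at 22 h (Sox11, Dlx2 and Cdhr1). DESeq2 called 5 of the 10 in the joint test (23.9% of 15766 genes), none at 2 h, 8 h and 12 h, and 1 at 22 h, Sox11 (0.490% of 16740 genes). At 12 h edgeR called none of all 16742 genes, with 1227 at an unadjusted p under 0.05, and DESeq2 called 16. The median log2 change of the 10 genes was 0.02 at 18 h beside -0.000726 over all genes, and -0.02, 0.09, -0.04 and 0.05 at 2 h, 8 h, 12 h and 22 h beside all-gene medians of -0.00173, -0.0116, -0.00834 and -0.00125.

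The number of genes called at 18 h depended on single libraries. It was 2012, and it was 160 without OB 0 h replicate 1, 958 without OB 0 h replicate 2, 48 without OB 18 h replicate 1 and 3035 without OB 18 h replicate 2. Without OB 0 h replicate 3 and OB 18 h replicate 1 together, an alternative chosen after seeing the data, 817 genes were called. Of the 10, these were Sox11 and 1 gene not called in the main fit, while Cdhr1 and Dlx2 lost the call. Without OB 0 h replicate 3 alone 5 of the 10 were called at 18 h (18% of all genes). Exon length went with direction: the genes called higher at 18 h had a median exon length of 2.09 kb, those called lower 9.59 kb, and all genes tested 4.08 kb. The exons of Sox11 measure 8.31 kb, those of Dlx2 2.85 kb and those of Cdhr1 4.33 kb. The part of the length slope and of the lane in these changes was not tested beyond the alternatives given with each gene.

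**Figure D3:**
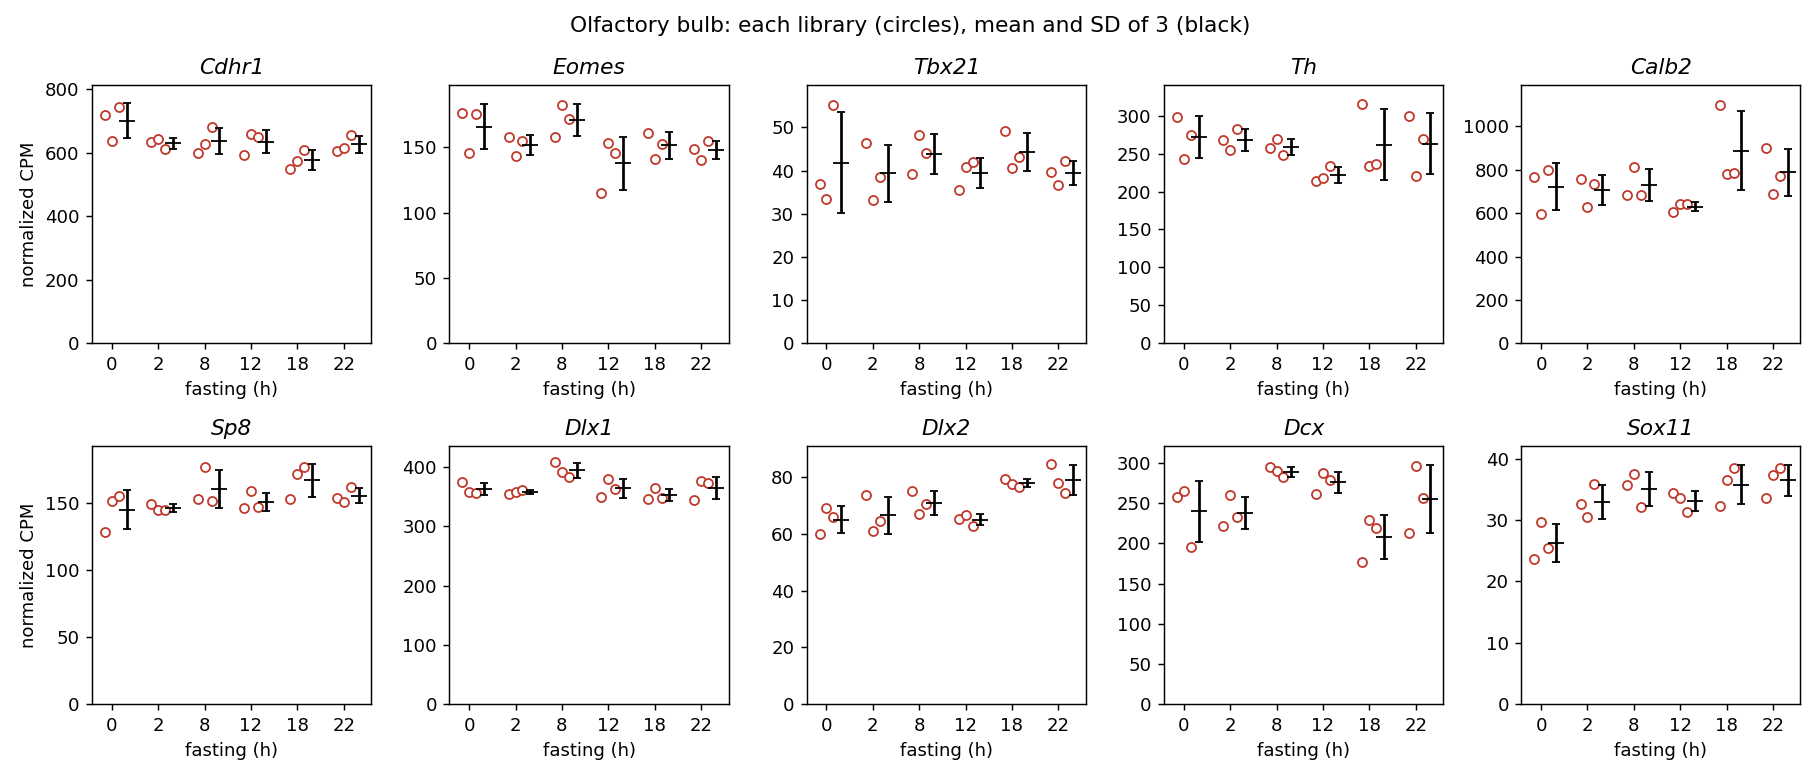
The level (CPM, vertical axis from 0) of each of the 10 genes in OB at each fasting time (h), with 1 circle per library and the mean and SD of 3 libraries in black. All 15 fasted libraries lie above the 3 unfasted libraries for Sox11, between 30.4 and 38.5 CPM.

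Among the projection neuron genes, Cdhr1 stood at 719.7, 638 and 745 CPM at 0 h, 633, 644 and 611 CPM at 2 h, 600.2, 628 and 680.4 CPM at 8 h, 593, 660.4 and 649.6 CPM at 12 h, 549, 575 and 610.1 CPM at 18 h, and 607, 615 and 657 CPM at 22 h. All 3 libraries of 18 h lay below all 3 of 0 h, and 10 of the 15 fasted libraries lay below the lowest unfasted library. At 18 h Cdhr1 had fallen to 0.825 of its level at 0 h (log2 change -0.28, SE 0.07, adjusted p = 0.0190), and the joint test gave an adjusted p of 0.0997. The call at 18 h ended without OB 0 h replicate 1 (adjusted p = 0.0818), without OB 18 h replicate 1 (0.103), without the pair of libraries that stand apart (log2 change -0.21, 0.107), with the lane as a covariate (-0.43, 0.174) and with the length slope as a covariate (-0.19, 0.526). Its adjusted p ranged from 0.00285 to 0.526 over all alternatives. In the joint test Cdhr1 was called by DESeq2 (adjusted p = 0.0349) and without OB 0 h replicate 2 (0.0426), within a range of 0.0349 to 0.378 over the alternatives.

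Eomes and Tbx21 gave no call at any time in the main fit. Eomes ranged from 114.7 to 182 CPM, with its lowest library at 12 h, where the log2 change was -0.27 (SE 0.10, adjusted p = 0.521). Tbx21 ranged from 33.2 to 55.2 CPM, and its highest library was OB 0 h replicate 3.

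Among the interneuron genes, Dlx2 stood at 60.1, 69.1 and 66.1 CPM at 0 h, 73.8, 61.1 and 64.6 CPM at 2 h, 75.2, 66.9 and 70.5 CPM at 8 h, 65.3, 66.8 and 62.9 CPM at 12 h, 79.3, 77.7 and 76.7 CPM at 18 h, and 84.7, 77.9 and 74.4 CPM at 22 h. The 6 libraries of 18 h and 22 h lay above all 3 unfasted libraries and above all 3 of 12 h, and the times up to 12 h overlapped with 0 h. Dlx2 rose 1.20-fold at 18 h (log2 change 0.26, SE 0.08, adjusted p = 0.0406), and the joint test gave an adjusted p of 0.0302. At 22 h the log2 change was 0.28 (SE 0.08, adjusted p = 0.211). Within lane 4, 18 h exceeded 12 h by a log2 difference of 0.25 (SE 0.08, adjusted p = 0.0360), a comparison in which 2922 of 16316 genes were called, and 22 h exceeded 12 h by 0.27 (SE 0.08, adjusted p = 0.356).

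The calls of Dlx2 were close to the threshold. In the joint test the call ended without OB 0 h replicate 1 (adjusted p = 0.0556), OB 2 h replicate 3 (0.0528), OB 8 h replicate 3 (0.0675), OB 12 h replicate 1 (0.0555), OB 12 h replicate 2 (0.0509), OB 12 h replicate 3 (0.0616), OB 18 h replicate 1 (0.0613), OB 18 h replicate 3 (0.0519) or OB 22 h replicate 1 (0.0596). It also ended with lane (0.133) or length slope (0.119) as a covariate, and the adjusted p over all alternatives ranged from 0.00654 to 0.133. At 18 h the call ended without OB 0 h replicate 1 (log2 change 0.20, 0.180) and OB 18 h replicate 1 (0.24, 0.168), and at an adjusted p of 0.0509 to 0.0596 without OB 2 h replicate 3, OB 8 h replicate 3, OB 18 h replicate 2, OB 18 h replicate 3 or any library of 12 h. It ended as well without the filter on low counts (log2 change 0.26, 0.0695), without the pair of libraries that stand apart (0.25, 0.110), with lane (0.27, 0.362) and with the length slope (0.15, 0.709), and ranged from 0.0247 to 0.709.

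Calb2 stood at 768, 598 and 799 CPM at 0 h, 757, 627 and 732 CPM at 2 h, 684, 813 and 686 CPM at 8 h, 605, 643 and 644 CPM at 12 h, 1098, 781 and 785 CPM at 18 h, and 901, 689 and 771 CPM at 22 h. The highest value belongs to OB 18 h replicate 1, the library of the lowest length slope, and Calb2 has the shortest exons of the 10 genes, 1.74 kb. The other libraries of 18 h lay within the range of 0 h. The log2 change at 18 h was 0.30 (SE 0.14, adjusted p = 0.142), and the joint test gave an adjusted p of 0.131 by edgeR and 0.0441 by DESeq2, within a range of 1.07e-06 to 0.305 over the alternatives. Within lane 4 the difference from 12 h to 18 h was 0.48 (SE 0.12, adjusted p = 0.0205), with 2922 of 16316 genes called.

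Th, Sp8 and Dlx1 gave no call at any time in the main fit. Th ranged from 214 to 316 CPM, with 3 libraries of 214, 217.7 and 234.02 CPM at 12 h that lay below all 3 unfasted libraries (log2 change -0.29, SE 0.11, adjusted p = 0.530). Sp8 ranged from 129 to 177 CPM and at 18 h had a log2 change of 0.20 (SE 0.08, adjusted p = 0.0964). Dlx1 ranged from 344 to 408 CPM with log2 changes between -0.04 and 0.12 over the 5 comparisons.

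Among the neuroblast genes, Sox11 stood at 23.6, 29.8 and 25.4 CPM at 0 h, 32.6, 30.4 and 35.9 CPM at 2 h, 35.6, 37.5 and 32.1 CPM at 8 h, 34.3, 33.6 and 31.3 CPM at 12 h, 32.3, 36.5 and 38.5 CPM at 18 h, and 33.7, 37.3 and 38.4 CPM at 22 h. All 15 fasted libraries lay above all 3 unfasted libraries, already from 2 h on. Of the 16742 genes tested, 0.215% separated the fasted from the unfasted libraries in either direction, and Sox11 was the only one of the 10. The 10 genes were chosen with earlier results of these data known, so this separation is a description. Sox11 rose 1.37-fold at 18 h (log2 change 0.45, SE 0.10, adjusted p = 0.0124), and the joint test gave an adjusted p of 0.0204. The log2 change was 0.33 at 2 h (SE 0.10, adjusted p = 1.00), 0.42 at 8 h (SE 0.10, adjusted p = 0.281), 0.34 at 12 h (SE 0.10, adjusted p = 0.395) and 0.48 at 22 h (SE 0.10, adjusted p = 0.0635), and these 5 changes share their 3 unfasted libraries.

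The joint call of Sox11 ended without OB 0 h replicate 1 (adjusted p = 0.112), the lowest of the unfasted libraries, and with lane (0.0548) or length slope (0.0527) as a covariate, within a range of 0.00250 to 0.112. The 18 h call ended without OB 0 h replicate 1 (log2 change 0.37, adjusted p = 0.0841), with lane (0.64, 0.174) and with length slope (0.52, 0.314), within a range of 0.00246 to 0.314. Lane 3 holds all 3 unfasted libraries, all 3 of 2 h and 2 of those of 8 h. Within it, the log2 difference of Sox11 from 0 h was 0.33 at 2 h (SE 0.11, edgeR adjusted p = 1.00) and 0.48 at 8 h (SE 0.12, edgeR adjusted p = 0.733), with 0 of 16234 genes called.

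Dcx stood at 258, 266 and 195.7 CPM at 0 h, 222, 259.9 and 232.4 CPM at 2 h, 295, 289.9 and 283 CPM at 8 h, 262, 287 and 278 CPM at 12 h, 177, 229 and 219 CPM at 18 h, and 213, 297 and 257 CPM at 22 h. The 3 libraries of 8 h lay above all unfasted libraries, and the lowest value was that of OB 18 h replicate 1. Dcx has the longest exons of the 10 genes, 12.6 kb. The log2 change was 0.27 at 8 h (SE 0.12, adjusted p = 0.448) and -0.20 at 18 h (SE 0.12, adjusted p = 0.249). The joint test missed the threshold in edgeR (adjusted p = 0.0596) and passed it in DESeq2 (0.0118), within a range of 9.96e-07 to 0.362 over the alternatives. It also passed without OB 0 h replicate 2 (0.0471), OB 0 h replicate 3 (0.0198), OB 2 h replicate 2 (0.0495), OB 22 h replicate 1 (0.0242) or OB 22 h replicate 2 (0.0318). Within lane 4 Dcx was lower at 18 h than at 12 h, with a log2 difference of -0.42 (SE 0.12, adjusted p = 0.0286), where 2922 of 16316 genes were called and the 3 libraries of 18 h have the lowest length slopes.

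Groups that do not overlap between 18 h and 0 h were found for 3 of the 10 genes, Sox11, Dlx2 and Cdhr1, where 25.9% of all genes tested in OB had such groups. The share of the 10 is therefore close to that of the genome.

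In the other regions the same genes gave no call over time by edgeR. In BRN, 0 of 9 genes were called (0.00597% of all genes), with 2 at an unadjusted p under 0.05, Calb2 (edgeR adjusted p = 0.137) and Dcx (edgeR adjusted p = 0.155), and DESeq2 called those 2 (9.80% of 16099 genes). Without BRN 18 h replicate 3, 3 of the genes and 2890 genes in all were called in BRN, and without BRN 22 h replicate 3 958 genes in all. In CBL, 0 of 6 were called (2.99% of all genes), with 0 at an unadjusted p under 0.05 and 0 by DESeq2. In BST, 0 of 6 were called (0.107% of all genes), with 0 at an unadjusted p under 0.05 and 0 by DESeq2. The count over all genes moved between 22 (without CBL 12 h replicate 2) and 1681 (without CBL 18 h replicate 3) in CBL, and between 1 (without BST 22 h replicate 3) and 218 (without BST 0 h replicate 3) in BST. Sox11, called in OB and not in these regions, is not shown by this to differ between them.

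The time course in OB was therefore tested against the mean time course of BRN, CBL and BST. Of the 10 genes, 2 differed, Dcx (adjusted p = 0.0169) and Calb2 (adjusted p = 0.0389), where 1.90% of the 18496 genes tested did. Dcx in BRN had means of 37.7 CPM at 0 h, 30.4 at 2 h, 16.8 at 8 h, 18.6 at 12 h, 30.3 at 18 h and 17.9 at 22 h. It was thus low in BRN at 8 h, 12 h and 22 h, and the 3 BRN libraries of 0 h lay above all later ones (35.2 CPM or more against 33.9 CPM or less). Calb2 in BRN had means of 73.0 CPM at 0 h, 79.3 at 2 h, 86.1 at 8 h, 127 at 12 h, 80.8 at 18 h and 108 at 22 h. The 3 BRN libraries of 0 h also had the highest transcript length slopes of that region (0.203, 0.154 and 0.165), and the lowest were those of 22 h replicate 2 (-0.182), 12 h replicate 2 (-0.142) and 22 h replicate 1 (-0.134). Library identifiers in BRN fall into a lower and a higher number series. Every BRN library of 0 h lies in the lower series. Of the later retained BRN libraries only 2 h replicate 3 and 12 h replicate 3 do, so series and time nearly coincide. With series as a covariate the edgeR joint test in BRN called 0 genes in all, and 1 without it. Dcx has the longest exons of the 10 genes and Calb2 the shortest. The part of the length slope and of the series in their courses in BRN was not tested. Dcx kept means of 5.10 to 6.60 CPM in CBL and of 13.4 to 14.7 CPM in BST, and Calb2 of 464 to 514 CPM in CBL and of 166.97 to 185 CPM in BST. Sox11 did not differ in this test (adjusted p = 0.478). Dlx2 had an adjusted p of 0.826, but its counts summed to 4 in CBL and to 2 in BST. Tbx21, Sp8, Dlx1 and Dlx2 did not pass the filter in CBL or BST, so the test compares no time course of theirs with those regions.

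Several alternatives changed the outcome for these 2 genes. With the animal as a block the adjusted p was 0.0334 for Dcx and 0.0555 for Calb2. With OB set against CBL and BST alone it was 0.0245 for Dcx and 0.0278 for Calb2. Dlx1 had 0.0390 in that setting, but its counts summed to 20 in CBL and to 14 in BST. That value therefore does not compare time courses. Without OB 0 h replicate 3 and OB 18 h replicate 1 the adjusted p was 0.164 for Dcx and 0.311 for Calb2. Without replicate 1 of every group no gene of all was called by edgeR and both had an adjusted p of 1.00. Without replicate 2 Calb2 had 0.0602, and without replicate 3 Dcx had 0.0515, Calb2 0.0545 and Sox11 0.00463. The count over all genes was 352, and 621 without replicate 2 and 1220 without replicate 3 of every group. Over the alternatives the adjusted p of both genes reached 1.00.

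The list of 12 mitral and tufted cell genes had 11 genes tested in OB, of which 5 were called in the joint test (15.4% of all genes). At 18 h 1 was called higher (5.70% of all genes) and 3 lower (6.31%), with a median log2 change of -0.16 beside -0.000726 over all genes, the value that also stands beside the medians of the other lists. Slc17a6, a vesicular glutamate transporter, fell (log2 change -0.47, SE 0.10), as did the potassium channel gene Kcna2 (-0.42, SE 0.09) and Reln, which encodes the secreted protein reelin (-0.36, SE 0.11). Uchl1, a ubiquitin hydrolase of neurons, rose (0.37, SE 0.11). None of the 18 h calls of this list or of those below remained with the lane or the length slope as a covariate, where 0 genes in all were called. The log2 change was -0.52 for Slc17a6, -0.14 for Kcna2 and -0.52 for Reln with the length slope, and -0.41, -0.68 and -0.21 with lane. The 3 genes that fell have exons of 5.40, 11.9 and 23.7 kb and Uchl1 of 1.63 kb. Slc17a6 stood at 34.6, 31.6 and 34.4 CPM at 0 h and at 24.1, 23.99 and 24.4 CPM at 18 h. These groups did not overlap, which held for 25.9% of all genes tested in OB.

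Of 16 bulb interneuron genes, all tested, 5 were called in the joint test (15.4% of all genes), and at 18 h 3 were higher (5.70%) and 2 lower (6.31%) with a median of 0.02. The joint call of Penk was lost in 12 of 25 alternatives, and DESeq2 called the same 5. The transcription factor gene Sp9 rose (log2 change 0.30, SE 0.08) and so did the enkephalin gene Penk (0.36, SE 0.10) and Dlx6 (0.35, SE 0.11), whose call was lost in 17 of 25 alternatives, while Etv1, a transcription factor of the dopaminergic lineage, fell (-0.28, SE 0.08) with Gad2, an enzyme of GABA synthesis (-0.24, SE 0.07). Their exon lengths are 5.04, 1.63, 2.375, 13.3 and 5.88 kb. Sp9 stood at 62.8, 68.4 and 71.2 CPM at 0 h and at 81.3, 82.02 and 86.03 CPM at 18 h. With the length slope as a covariate the log2 change at 18 h turned to -0.03 for Uchl1 and -0.02 for Penk, and it was -0.08 for Gad2, -0.25 for Etv1, 0.34 for Sp9 and 0.10 for Dlx6. With lane it was 0.44 for Uchl1, 0.50 for Penk, -0.18 for Gad2, -0.17 for Etv1, 0.18 for Sp9 and 0.43 for Dlx6.

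Of 12 genes of dopamine synthesis and handling, 11 were tested and 2 called in the joint test (15.4% of all genes), Gch1 and Spr, which both serve the synthesis of the cofactor tetrahydrobiopterin. Their joint calls were lost in 6 and 11 of 25 alternatives, and DESeq2, which called 23.9% of 15766 genes, called 5, these 2 with Nr4a2, Pts and Slc18a2. At 18 h 1 was called (12.0% of all genes), Spr, which rose (log2 change 0.44, SE 0.10, exons of 3.55 kb, 0.27 with the length slope and 0.40 with lane), and the median was -0.01. Th itself gave no call.

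Of 16 neuroblast and migration genes, all tested, 6 were called in the joint test (15.4% of all genes), and at 18 h 4 were higher (5.70%) and 1 lower (6.31%) with a median of 0.10. The joint calls of Tubb3, Dpysl5 and Tnr were lost in 11, 14 and 19 of 25 alternatives, and DESeq2 called 11 of the 16 genes (23.9% of 15766 genes). Igfbpl1, expressed in neuroblasts, rose most (log2 change 0.57, SE 0.10), followed by the tubulin gene Tubb2b (0.45, SE 0.09), Nrep (0.38, SE 0.07) and Cd24a (0.28, SE 0.09), whose call was lost in 17 of 25 alternatives. Tnr, the extracellular matrix protein tenascin-R, fell (-0.68, SE 0.17), and its joint test was close to the threshold (adjusted p = 0.0498). With the length slope as a covariate the log2 change was -0.07 for Tnr and 0.12 for Tubb2b, while it was 0.52 for Igfbpl1, 0.38 for Nrep and 0.36 for Cd24a. With lane it was -0.92 for Tnr, 0.53 for Tubb2b, 0.61 for Igfbpl1, 0.54 for Nrep and 0.44 for Cd24a. The exons of the 4 genes that rose measure 3.25, 2.29, 3.91 and 2.58 kb and those of Tnr 12.9 kb. Igfbpl1 stood at 18.9, 21.4 and 18.996 CPM at 0 h and at 28.9, 25.7 and 33.6 CPM at 18 h, and Nrep at 217, 243 and 206 CPM and at 292, 284 and 289 CPM. For both genes the libraries of 18 h lay above those of 0 h, as did those of Sox11. Of all genes tested in OB, 25.9% had groups that do not overlap between these times.

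Of 10 neural stem cell and progenitor genes, 9 were tested and edgeR called 0 in the joint test (15.4% of all genes), with 4 at an unadjusted p under 0.05. DESeq2 called 2 of them (23.9% of 15766 genes). At 18 h 1 was called higher (5.70% of all genes) and 1 lower (6.31%), with a median of 0.14. Sox1, a transcription factor, rose (log2 change 0.35, SE 0.09) and Egfr, a growth factor receptor, fell (-0.55, SE 0.15), with exons of 4.83 and 11.3 kb. Over all alternatives the log2 change was 0.23 to 0.43 for Sox1 and -0.65 to -0.34 for Egfr. Of 8 genes of dividing cells, 7 were tested and edgeR called 0 in the joint test (15.4% of all genes), with 2 at an unadjusted p under 0.05 and 0 by DESeq2. At 18 h 1 was called higher (5.70% of all genes), Pcna, the DNA polymerase clamp (log2 change 0.38, SE 0.11, 0.27 to 0.60 over all alternatives). The median was -0.07. The 8 activity-dependent genes, all tested, had 0 calls by edgeR in the joint test (15.4% of all genes) and at 18 h (12.0%). There were 0 at an unadjusted p under 0.05 and 0 by DESeq2, and the median at 18 h was -0.39. The most abundant of them were Egr1, with 53.3 to 473 CPM, and Arc, with 53.9 to 283 CPM, and their spread over the libraries was wide. Over these 7 lists and the 10 genes, the 13 genes called higher at 18 h had a median exon length of 2.85 kb and the 8 called lower 11.6 kb. At 2 h, 8 h, 12 h and 22 h edgeR called none of the genes of the 7 lists, with up to 7 of a list at an unadjusted p under 0.05, and at 22 h DESeq2 called 1 mitral and tufted cell gene, 1 interneuron gene and 3 neuroblast genes.

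Markers of other cells were followed by their summed level in each library. The 8 olfactory sensory neuron markers, all detected in OB, summed to 247 to 699 CPM (median 462), with Omp as the most abundant, and 1 was called in the joint test (15.4% of all genes), Adcy3, with an adjusted p of 0.0476 that lost the call in 19 of 25 alternatives. The 4 choroid plexus markers summed to 3.05 to 12.6 CPM in 17 OB libraries and to 355 CPM in OB 0 h replicate 3, with Ttr as the most abundant and the only one called by edgeR, while DESeq2 called 0. The 5 red blood cell genes summed to 59.3, 95.6 and 95.5 CPM at 0 h and to 247, 168.9 and 115.6 CPM at 18 h. The libraries of 18 h and those of 2 h, with 112.9 to 126.1 CPM at 2 h, lay above the unfasted ones, and the means were 55.2 CPM at 8 h, 95.04 at 12 h and 58.5 at 22 h. Of these genes 4 were called in the joint test (15.4% of all genes) and 2 at 18 h (12.0%), Hbb-bt and Hba-a2. The joint call of Hba-a1 (adjusted p = 0.0460) was lost in 18 of 25 alternatives, and DESeq2 called all 5 both in the joint test (23.9% of 15766 genes) and at 18 h (18.9% of 13819). Hbb-bs was the most abundant of them. The part of these cells in the changes of the 10 genes was not tested.

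Glial markers were followed in the same way. The 4 astrocyte markers summed to 2023 to 2443 CPM (median 2289.9, highest gene Slc1a2). Gfap (adjusted p = 0.00838) and Aqp4 (0.0275) were called in the edgeR joint test (15.4% of all genes). Their joint calls were lost in 2 and 5 of 25 alternatives. At 18 h Gfap was called higher (5.70% of all genes) and Aqp4 lower (6.31%), with log2 changes of 0.30 and -0.45. DESeq2 called these 2 and Slc1a2 at 18 h (18.9% of 13819 genes). Of the oligodendrocyte markers 1 was called in the joint test (15.4% of all genes), Mog, with an adjusted p of 0.0459 that rose to as much as 0.678 and lost the call in 17 of 25 alternatives. The 4 microglia markers summed to 136.5 to 199 CPM (median 186, highest gene Csf1r). Of the olfactory ensheathing glia and microglia lists edgeR called 0 genes in the joint test (15.4% of all genes), with 2 and 1 at an unadjusted p under 0.05. DESeq2 called 1 and 0 of them (23.9% of 15766 genes).

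Markers of neurons of other regions were low or shared, and their sums are given after scaling over the 4 regions. The 6 cortical excitatory neuron markers summed to 33.3 to 46.4 CPM in OB (highest gene Tbr1, also a mitral cell gene) against a mean of 181 CPM in BRN, and the 6 striatal projection neuron markers to 53.2 to 69.8 CPM (highest gene Ppp1r1b) against 785 CPM. The 6 markers of cerebellar granule and Purkinje cells summed to 137.2 to 185.2 CPM, most of it from Zic1, itself expressed in the bulb, against a mean of 6168 CPM in CBL. The 6 midbrain dopamine neuron markers summed to 68.4 to 92.2 CPM, with Aldh1a1 as the most abundant and En1 at 0 in every OB library, and the 4 noradrenergic neuron markers to 0.206 to 1.02 CPM, with Dbh as the most abundant. For the cortical, striatal, granule and Purkinje, midbrain dopamine and noradrenergic lists edgeR called 0 genes in the joint test (15.4% of all genes). At an unadjusted p under 0.05 there were 0, 1, 0, 0 and 0, and DESeq2 called 0.

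Over the 24 means of region and time, the 3 genes most like each of the 10 were sought by Pearson's r of log2 levels, as a description without a test. Each r covers the difference between OB and the other regions as well as time. Mitral and tufted cell genes were most like Ms4a15, Trdn and Gm34838 for Tbx21 (r = 0.999, 0.997 and 0.996), Nmb, Plekha2 and Rhcg for Cdhr1 (0.991, 0.990 and 0.989), and Tuba8, Kctd12 and Nlrp10 for Eomes (0.983, 0.983 and 0.979). Among the interneuron genes, Th was most like Sp7, Mdga1 and Scgn (0.994, 0.986 and 0.986), Calb2 like Slc9a3r2, Tmem198b and Bmi1 (0.975, 0.975 and 0.974), and Sp8 like Rhcg, Scgn and Sp9 (0.994, 0.993 and 0.991). Dlx1 was most like Smarcd1, Tiam2 and Mpp2 (0.997, 0.994 and 0.993) and Dlx2 like Sp9, Dlx5 and Cdc42se2 (0.997, 0.995 and 0.992). The neuroblast gene Dcx was most like Ssc5d, Snx7 and Syt6 (0.991, 0.986 and 0.985), and Sox11 like Ighg2c, Dlx6os1 and Rlbp1 (0.971, 0.966 and 0.964). Sp9 thus stood near both Sp8 and Dlx2 and Scgn near both Th and Sp8, and Rhcg stood near the mitral and tufted cell gene Cdhr1 as well as near Sp8.

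The genes lie on 8 chromosomes in GRCm38. Dlx1 (chr2:71528113-71533981, forward strand) and Dlx2 (chr2:71543408-71546754, reverse strand) are neighbours that point toward each other, and only Dlx2 was called over time. Sox11 (chr12:27334264-27342574, reverse strand) has 1 merged exon, and Cdhr1 (chr14:37077857-37098347, reverse strand) has 17. Dcx (chrX:143855842-143933311, reverse strand) is X-linked. The others are Th (chr7:142892752-142931128), Calb2 (chr8:110137502-110168210) and Tbx21 (chr11:97098071-97115331) on the reverse strand and Eomes (chr9:118478212-118486132) and Sp8 (chr12:118846329-118852576) on the forward strand.

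Promoter sequences, from 250 bases before to 50 bases after the start of transcription, were taken from RefSeq on GRCm38.p6 and were found for 9 of the 10 genes, all but Calb2. They are shown for the 3 genes called at 18 h and for Th, each 5′ to 3′ on the strand of its gene. Capitals mark matches, on either strand, to 7 motifs: the homeodomain core TAATTA (in 5.29% of 32851 promoters), the T-box site GGTGTGA (3.98%), the GC box GGGCGG (35.7%), the cyclic AMP response element TGACGTCA (1.79%), the TATA box TATAAA (13.6%), the CCAAT box CCAAT (37.4%) and the SOX core ACAAAG (18.7%). The promoter of Th holds the cyclic AMP response element at -45 and a GC box at -220. Those of Sox11 and Dlx2 each hold a CCAAT box, at -60 and -74, with 2 GC boxes in Sox11 and 1 in Dlx2, at -119, and that of Cdhr1 holds a CCAAT box at -21. A match is a description and not a site shown to be bound, and no match says only that these letters are not in this window. The 4 promoters hold 15 (Th), 21 (Sox11), 29 (Dlx2) and 9 (Cdhr1) CpG dinucleotides beside a median of 7 over all promoters.
Th, chr7:142899946-142900245: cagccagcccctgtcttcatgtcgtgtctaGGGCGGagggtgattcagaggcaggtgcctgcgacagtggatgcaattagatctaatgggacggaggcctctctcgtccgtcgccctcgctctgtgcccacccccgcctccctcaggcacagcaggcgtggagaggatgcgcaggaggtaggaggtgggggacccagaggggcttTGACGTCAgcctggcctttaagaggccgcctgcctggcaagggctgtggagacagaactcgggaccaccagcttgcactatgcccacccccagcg
Cdhr1, chr14:37098298-37098597: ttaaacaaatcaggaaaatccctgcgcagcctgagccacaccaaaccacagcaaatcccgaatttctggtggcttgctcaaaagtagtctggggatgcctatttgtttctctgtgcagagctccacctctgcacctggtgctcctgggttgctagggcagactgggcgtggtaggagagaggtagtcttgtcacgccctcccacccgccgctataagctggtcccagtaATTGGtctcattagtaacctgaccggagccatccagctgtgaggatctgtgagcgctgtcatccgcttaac
Dlx2, chr2:71546705-71547004: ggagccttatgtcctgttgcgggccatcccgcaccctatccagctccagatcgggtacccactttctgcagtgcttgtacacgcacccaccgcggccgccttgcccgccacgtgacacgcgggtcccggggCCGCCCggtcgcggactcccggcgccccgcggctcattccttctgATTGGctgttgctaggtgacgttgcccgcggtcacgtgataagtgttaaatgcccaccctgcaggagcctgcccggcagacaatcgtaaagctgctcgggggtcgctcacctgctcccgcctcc
Sox11, chr12:27342669-27342968: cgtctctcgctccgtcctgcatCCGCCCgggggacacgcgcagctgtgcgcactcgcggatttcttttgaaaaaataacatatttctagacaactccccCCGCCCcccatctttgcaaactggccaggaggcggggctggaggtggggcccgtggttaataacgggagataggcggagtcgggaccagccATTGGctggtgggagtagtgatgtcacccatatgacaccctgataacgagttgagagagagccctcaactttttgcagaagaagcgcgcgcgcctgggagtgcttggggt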

How the data were processed

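The deposited values are read counts per gene symbol for each library; according to the authors, reads from TruSeq stranded mRNA libraries were aligned to GRCm38.p5 with TopHat2 2.1.1 and counted with HTSeq 0.9.1. The strand setting of the counting is not stated. The 10 genes and the lists were chosen with earlier results of these data known. Genes were kept where at least 3 libraries passed the CPM that 10 counts make at the median depth. Counts were scaled by TMM and fitted with edgeR 4.0.16 quasi-likelihood (robust) in R 4.3.3, with p adjusted over all genes tested by the Benjamini-Hochberg method; DESeq2 1.42.0 served as the other tool. A gene was called at an adjusted p under 0.05, and between regions also at a change above 2-fold. BRN 8 h replicate 3 and BRN 18 h replicate 1 were left out because of low totals. Libraries of different regions that share a time and a replicate number are paired, since each animal gave every organ. The mean correlation of residuals was 0.0262 over 102 pairs from the same animal. The value for different animals, -0.0131, largely follows from it, since residuals cancel within a group. The 2 values together are therefore no check of the pairing. Exact binomial intervals were used for ratios of pooled counts. Promoters are RefSeq on GRCm38.p6. Figures were made in python 3.11.15 with matplotlib 3.10.9. The other 5 organs are not analysed here. Some results of the marker lists are not reported here.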

Additional observations from a re-analysis of the deposited data

Results flagged for a closer look

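The time course in OB differed from that of the other 3 regions for Calb2 (edgeR quasi-likelihood, adjusted p = 0.0389), Dcx (0.0169), Erbb4 (0.0319), Tnr (0.0107) and Ttr (0.0326). Of all 18496 genes tested, 1.90% differed. Without replicate 1 of every group it was 0%, and without OB 0 h replicate 3 and OB 18 h replicate 1 it was 0.0325% of 18444. Of the genes named, Dcx and Calb2 are described in the text with their alternatives, and Ttr stood apart in 1 OB library. Erbb4 and Tnr have exons of 12.4 and 12.9 kb, and the part of the length slope was not tested.

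Members were also read in organs that were not analysed here. The median CPM in STM over 17 libraries was 0.885 for Th, 0.876 for Calb2, 0.553 for Dcx and 0.876 for Dlx1. In iBAT it was 1.56 for Tbx21 over 17 libraries, and in pgWAT 0.621 for Tbx21 and 0.770 for Sox11 over 18 libraries. In psWAT over 17 libraries it was 14.0 for Eomes, 6.63 for Tbx21, 4.36 for Cdhr1 and 0.827 for Sox11.

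Each group holds at most 3 libraries, so no group was large enough for a test of single samples.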

How the results depend on the processing

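Each result was repeated with 1 choice changed at a time; leaving out OB 0 h replicate 3 with OB 18 h replicate 1, and the length slope covariate, were chosen after seeing the data. Counts are of genes called by edgeR unless DESeq2 is named. Of the single-gene values, 1571 kept their outcome, 351 were weaker, 15 stronger and 2 reversed. The 2 that reversed were the log2 changes at 18 h of Uchl1 (0.37, with the length slope -0.0286) and Penk (0.36, with the length slope -0.0178).

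The joint test in OB called 2570 genes (15.4%), 3763 with DESeq2 (23.9%), 4388 without the filter, 1176 with lane and 75 with the length slope, and 1019 to 3680 with 1 library left out. Of the members it called 2, 5 with DESeq2, 5 without the filter, 0 with lane, 0 with the length slope and 0 to 4 with 1 library left out.

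At 2 h 1 gene was called, 0 with the fold threshold, 56 without the filter, 7 without the pair that stands apart and 0 to 1 with 1 library left out. At 8 h it was 3, 1 with the fold threshold, 5 with DESeq2, 257 without the filter, 0 with lane, 2.3e+02 (1.37% of 16916) without the pair, 12 with the length slope and 0 to 61; of the members 0, and 1 without the filter. At 12 h it was 0, 16 with DESeq2, 266 without the filter, 1 with lane, 52 without the pair and 0 to 23. At 18 h it was 2012, 89 with the fold threshold, 0 with lane, 817 without the pair, 0 with the length slope and 48 to 3035; of the members 3, 0 with the fold threshold, 0 with lane, 0 with the length slope and 0 to 5. At 22 h it was 19, 6 with the fold threshold, 82 with DESeq2, 297 without the filter, 0 with lane, 250 without the pair, 53 with the length slope and 0 to 50; of the members 0, 1 with DESeq2, 1 without the filter, 1 without the pair, 1 with the length slope and 0 to 1.

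The log2 change at 18 h, with its adjusted p, was for Cdhr1 -0.43 (0.174) with lane, -0.21 (0.107) without the pair and -0.19 (0.526) with the length slope. For Sox11 it was 0.64 (0.174) with lane and 0.52 (0.314) with the length slope, and for Dlx2 0.27 (0.362) with lane, 0.15 (0.709) with the length slope, 0.25 (0.110) without the pair and 0.0695 as the adjusted p without the filter. The adjusted p of the joint test was for Sox11 0.0548 with lane and 0.0527 with the length slope, for Dlx2 0.133 and 0.119, for Dcx 0.0118 with DESeq2 and 9.96e-07 without the filter, for Cdhr1 0.0349 with DESeq2, for Calb2 0.0441 with DESeq2 and 1.07e-06 without the filter, and for Eomes 0.0280 without the filter. With 1 library left out it ranged from 0.0126 to 0.112 for Sox11, 0.0167 to 0.0675 for Dlx2, 0.0198 to 0.182 for Dcx and 0.0426 to 0.213 for Cdhr1.

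Within a region, libraries of different times share only a replicate number. With the replicate block the joint test in OB called 3047 genes (3 members, Dcx among them with an adjusted p of 0.0178) and 18 h 2517 (3 members). In a check of the pairing, OB residuals of the same number had a mean r of 0.0253 (-0.280 to 0.372, 45 pairs), and 10 of 18 libraries were most like their own number.

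In BRN 1 gene was called, 1577 with DESeq2, 2015 without the filter, 0 with the replicate block, 7 with all 18 libraries, 0 with the series covariate and 0 to 2890 with 1 library left out; of the members 0, 2 with DESeq2, 2 without the filter and 0 to 3. In CBL it was 477, 1771 with DESeq2, 2397 without the filter and 22 to 1681; of the members 0, and 1 without the filter. In BST it was 18, 212 with DESeq2, 749 without the filter, 33 with the replicate block and 1 to 218.

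Higher in OB than in BRN were 2254 genes, 3417 without the filter, 1281 at 0 h, 1803 with the animal block (9 members) and 1877 to 3571 without 1 replicate. Sox11 had a log2 difference of 1.04, 0.89 without replicate 2, 0.91 with all 18 BRN libraries, 0.91 without 2 BRN libraries, 0.58 at 0 h, 0.99 with the animal block and 2.65 without replicate 3. Between BRN and BST 4942 genes differed, 3173 at 0 h; of the members 5, and 2 to 6 without 1 replicate.

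The time course in OB differed from the other regions for 352 genes, 1456 without the filter, 6 without the pair, 2519 without BRN, 263 with the animal block and 0 to 1220 without 1 replicate; of the members 2, 0 without the pair, 3 without BRN, 1 with the animal block and 0 to 1. The adjusted p was 0.0169 for Dcx, and 0.164 without the pair. For Calb2 it was 0.0389, 0.311 without the pair and 0.0555 with the animal block. For Dlx1 it was 0.0390 without BRN, but Dlx1 was at or near the floor in CBL and BST, so this value does not compare time courses. Values without 1 replicate of every group are given in the text.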

Other observations

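Calb2 reached 418 CPM (2658 counts) in psWAT 12 h replicate 3, while its median over the psWAT libraries was 0.115 CPM. The same library held the highest Th, 1.57 CPM (10 counts), and the highest Dcx, 2.67 CPM (17 counts), while both had a median of 0. This library was picked after the values had been seen, and the cause was not tested.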
